A study of Macaca nemestrina with 58 samples.

Results

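Glycolysis and hypoxia response genes were followed before and during hormonal contraception in the vaginal mucosa of 15 pig-tailed macaques (Macaca nemestrina), sampled by biopsy. The set names 38 genes: glucose transporters, enzymes of glycolysis and of the lactate and pyruvate branch, oxygen sensors, and genes that the transcription factor HIF induces. A gene was read from the brightest probe set that carries its symbol alone, with control probe sets left out. This gave 26 genes out of 14132 named on the array, and 25 of them were bright enough to be tested. PFKFB3, a regulator of phosphofructokinase, lay under the brightness minimum. PFKM, PFKFB4, PGK1, PGAM1, LDHB, HIF1A, EGLN3, VEGFA, BNIP3, BNIP3L, NDRG1 and ANKRD37 had no such probe set and are not analysed here. RNA of vaginal pinch biopsies was amplified and hybridised to 58 arrays made for the rhesus macaque. The treated samples were 8 labelled 1D4 and 9 labelled 2D2, which are times, from 9 animals given DMPA (depot medroxyprogesterone acetate, an injected progestin), at doses labelled 0.5, 1.5 and 2.5 with no unit. A further 6 samples labelled 5th and 6 labelled 7th, also times, came from 6 animals of the arm labelled LNG, which the series design calls a combined oral contraceptive, 3 of them labelled High and 3 Low. The labels of 5 of these 12 samples, 1 at 5th and 4 at 7th, carry the mark (A-), which is not explained. Untreated baseline biopsies of the same 15 animals made 28 samples, with 15 from the follicular phase (10 early and 5 late) and 13 from the luteal phase (4 early and 9 late). The labels give no age and no genotype for the animals.

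Glycolysis splits glucose into pyruvate, and lactate dehydrogenase turns pyruvate into lactate. When oxygen is short, the prolyl hydroxylases of the EGLN family stop marking HIF for breakdown, and HIF then raises glucose transporters, glycolytic enzymes, the pyruvate dehydrogenase kinase PDK1 and effectors such as carbonic anhydrase CA9. The vaginal surface is a stratified squamous epithelium with few vessels of its own, and estrogen thickens it and loads it with glycogen, whose sugar feeds lactic acid in the lumen.

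All values below are log2 signals as deposited, and changes are differences on that scale with the standard error (SE) of a limma fit that holds the animal as a block. A gene passed at an adjusted p under 0.05 over 31624 probe sets. The array medians lay between 6.07 and 6.25, and precision is limited by how many arrays there are. The replicates at a treated time are different animals, an animal could give baseline samples in more than 1 phase, and 1 late follicular sample is the mean of a pair of arrays. Squamous markers were bright in the baseline, where the mean of 14 such genes (keratins KRT4 and KRT13, cornulin CRNN and others) was 12.35 ± 0.94 (SD, n = 28, range 9.35 to 13.09). In biopsies, fewer cells of a type and less RNA per cell cannot be told apart. Since every animal was treated at the later times, the drug cannot be told apart from time or from repeated sampling, and neither the labels nor the table names an array batch.

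The first comparison asked how the mucosa at DMPA 2D2 differed from the baseline of the same animals. Enzymes of glycolysis from hexokinase to lactate dehydrogenase fell, as did the glucose transporter SLC2A1, while among the genes known as HIF effectors ERO1A fell and CA9 rose. Of the 25 genes, 11 fell and 1 rose, or 48%, against 28.1% of all probe sets in either direction, 12.1% lower and 16% higher. With 1 probe set per named gene, 3721 of 11199 passed, 2042 higher and 1679 lower, among them 12 of the 25 genes. The 5055 higher and 3819 lower probe sets became 3811 and 4758 with each array centred on the median of the tested probe sets, which left 11 of the 25 genes lower and 1 higher. The median change of the 25 was -0.34, against 0.04 over all probe sets. Of the 14 enzymes of glycolysis and the pyruvate branch 9 fell, and all 14 had a negative change with a median of -0.41. Of the 9 oxygen sensing and HIF-induced genes 1 fell and 1 rose, with a median of -0.05.

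**Figure D1:**
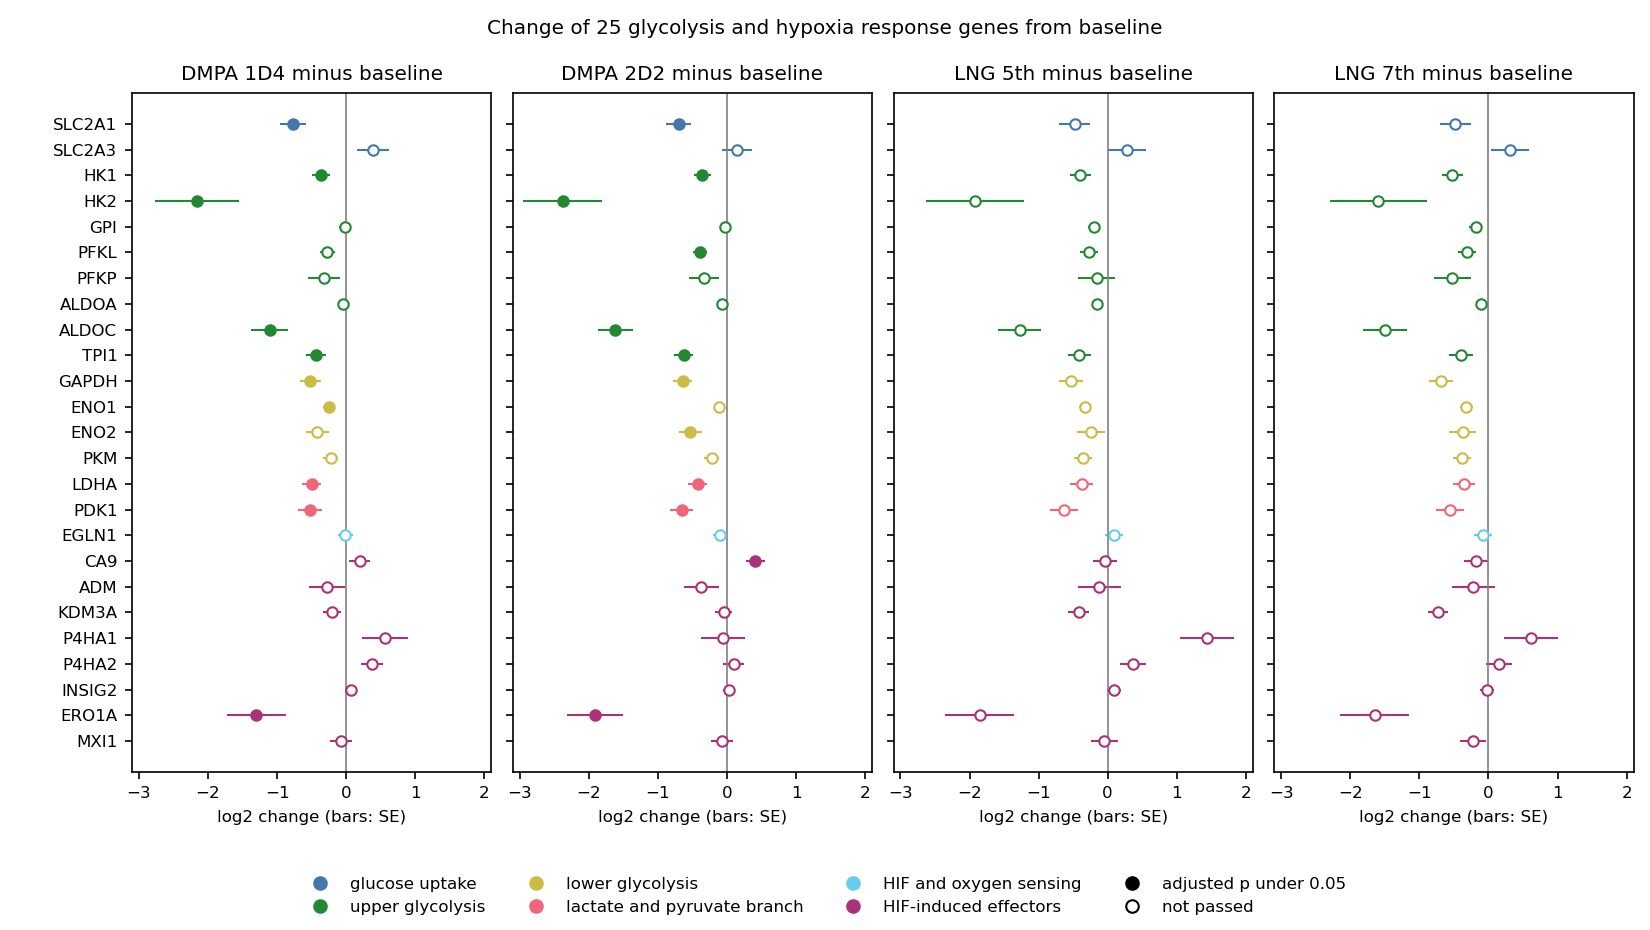
Log2 change from baseline (x axis, bars are SE) of the 25 genes (rows, coloured by role) at DMPA 1D4 (8 animals), DMPA 2D2 (9), LNG 5th (6) and LNG 7th (6), with filled points where limma's adjusted p was under 0.05. HK2, ALDOC and ERO1A lie farthest to the left in all 4 panels, CA9 lies right of 0 at DMPA 2D2, and P4HA1 lies at 1.44 at LNG 5th.

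Glucose enters cells of many tissues through SLC2A1 (GLUT1). At 2D2 its log2 values ran from 9.91 to 11.10 (median 10.42), against 9.78 to 12.14 (median 11.09) in the 17 baseline samples of the DMPA animals. The ranges overlapped, with none of the treated samples below the lowest baseline sample. SLC2A1 fell by 0.70 ± 0.18 (adjusted p = 0.00515, limma), and was lower in 7 of 9 animals. SLC2A3 (GLUT3), the transporter best known from neurons, had a change of 0.15 ± 0.22 and did not pass.

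Hexokinase, which traps glucose as its phosphate, showed the largest change of the set. HK2, the inducible isoenzyme, had values from 6.0996 to 10.14 (median 7.26) at 2D2, against 6.50 to 11.72 (median 9.46) at baseline. BB770 stood apart at 10.14, and the other 8 lay at or below 7.65. The ranges overlapped, with 2 of 9 treated samples below the lowest baseline sample. HK2 fell by 2.38 ± 0.57, or 5.19-fold (adjusted p = 0.003, limma), in 9 of 9 animals. HK1, the widely expressed isoenzyme, fell by 0.35 ± 0.12 in 8 of 9 animals (adjusted p = 0.0289, limma), but the other 3 probe sets of HK1 had changes between -0.05 and 0.07 and did not pass.

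The brain-type aldolase gene ALDOC, whose enzyme splits fructose bisphosphate, had the smallest p of the set. Its values at 2D2 were 7.62 to 10.59 (median 8.92), against 8.85 to 11.24 (median 10.45) at baseline. At 2D2, 4 of 9 samples lay below the lowest baseline sample. ALDOC fell by 1.62 ± 0.26 or 3.07-fold in 9 of 9 animals (adjusted p = 0.000155, limma), and its other probe set fell by 1.54 ± 0.27. The muscle-type aldolase ALDOA had a change of -0.07 ± 0.06 and did not pass.

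Among the other enzymes upstream in the pathway, triose phosphate isomerase TPI1 and the liver-type phosphofructokinase PFKL fell too. TPI1 ran from 9.94 to 11.69 (median 10.84) at 2D2, against 10.74 to 11.93 (median 11.53) at baseline, and fell by 0.63 ± 0.14 (adjusted p = 0.00138, limma), while its dimmer probe set had a change of -0.15 ± 0.13 that did not pass. PFKL had values from 8.15 to 9.11 (median 8.75), against 8.66 to 9.50 (median 9.11), and fell by 0.39 ± 0.10 (adjusted p = 0.00618, limma). For both genes 3 of 9 treated samples were below every baseline sample, and 8 of 9 animals were lower. The platelet-type phosphofructokinase PFKP had a change of -0.34 ± 0.22 and glucose phosphate isomerase GPI of -0.02 ± 0.08, neither of which passed. The probe sets of GPI disagreed: a dimmer one rose by 1.59 ± 0.38 (adjusted p = 0.00274, limma).

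Further down, GAPDH, which oxidises the triose phosphate, and the neuron-type enolase ENO2 fell. GAPDH had values from 10.04 to 11.66 (median 10.76) at 2D2, against 10.63 to 11.78 (median 11.52) at baseline, and fell by 0.64 ± 0.14 or 1.56-fold in 8 of 9 animals (adjusted p = 0.00134, limma). ENO2 had 8.35 to 9.30 (median 8.71), against 8.28 to 10.71 (median 9.25), and fell by 0.53 ± 0.16 in 9 of 9 animals (adjusted p = 0.015, limma). No treated sample of ENO2 lay outside the baseline range. The ubiquitous enolase ENO1 had 12.38 to 12.91 (median 12.56) at 2D2, against 12.43 to 13.01 (median 12.70), a change of -0.11 ± 0.07 that did not pass, although a dimmer ENO1 probe set fell by 0.84 ± 0.21 (adjusted p = 0.00329, limma). Pyruvate kinase PKM had a change of -0.22 ± 0.10 without passing, and its other probe set fell by 0.42 ± 0.14. GAPDH is often used to scale other transcripts, and here it differed between the groups.

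At the end of the pathway, LDHA, which makes lactate, and PDK1, a kinase of pyruvate dehydrogenase, both fell. LDHA ran from 10.97 to 11.91 (median 11.22) at 2D2, against 10.88 to 12.14 (median 11.67) at baseline. It fell by 0.42 ± 0.13 in 8 of 9 animals (adjusted p = 0.0159, limma). PDK1 had values from 7.35 to 8.79 (median 7.89), against 8.02 to 9.18 (median 8.64), and fell by 0.66 ± 0.17 in 8 of 9 animals (adjusted p = 0.00392, limma). For PDK1, 6 of 9 treated samples were below the lowest baseline sample.

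Among the oxygen sensing and HIF-induced genes, 2 of 9 passed, in opposite directions. ERO1A, an oxidase of the endoplasmic reticulum that drives disulfide bond formation, had 8.61 to 10.53 (median 9.13) at 2D2, against 9.53 to 12.14 (median 11.47) at baseline. It fell by 1.91 ± 0.41 or 3.77-fold in 9 of 9 animals (adjusted p = 0.00106, limma), and its other probe sets fell by 1.44 and 1.95. CA9, a surface carbonic anhydrase widely used as a hypoxia marker, had 7.50 to 8.51 (median 7.96), against 7.13 to 8.24 (median 7.57). It rose by 0.41 ± 0.14 or 1.33-fold in 8 of 9 animals (adjusted p = 0.0283, limma), with 3 of 9 samples above every baseline sample. CA9 did not pass after quantile normalization or with the phases of the baseline kept apart. The other genes of this group did not pass: the prolyl hydroxylase EGLN1 had a change of -0.10 ± 0.10, the vasodilator peptide gene ADM of -0.37 ± 0.25, the collagen prolyl hydroxylases P4HA1 and P4HA2 of -0.05 ± 0.32 and 0.10 ± 0.15, the histone demethylase KDM3A of -0.05 ± 0.12, the sterol regulator INSIG2 of 0.03 ± 0.08 and the MYC antagonist MXI1 of -0.07 ± 0.15. A dimmer KDM3A probe set rose by 0.45 ± 0.12 (adjusted p = 0.00744, limma).

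**Figure D2:**
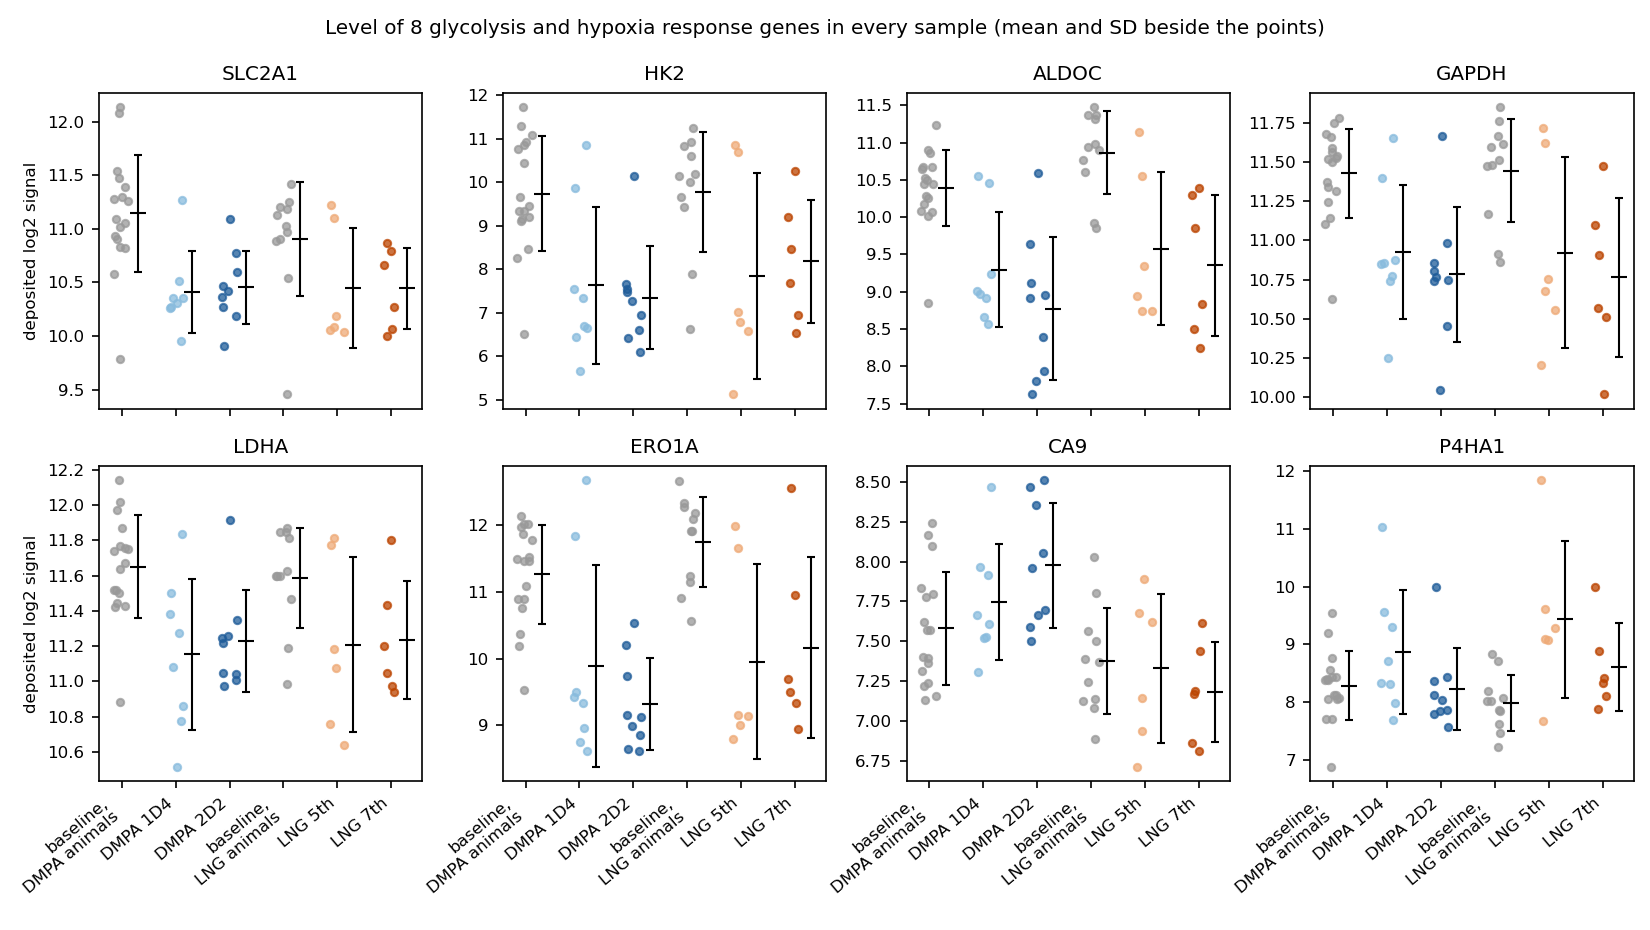
Deposited log2 signal (y axis) of 8 genes in every sample, as points, for the baseline of the DMPA animals (17 samples), DMPA 1D4 (8), DMPA 2D2 (9), the baseline of the LNG animals (11), LNG 5th (6) and LNG 7th (6), with the mean and SD beside the points. In the HK2 and LDHA panels 1 sample at DMPA 2D2 stands above the other 8, and CA9 is shifted upward at DMPA 2D2 while the other genes of the DMPA animals, P4HA1 aside, lie lower than at baseline.

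At 1D4 enzymes of the same pathway fell as well, with HK2 again the farthest below baseline. Of the 25 genes 10 fell and none rose, against 23.2% of all probe sets in either direction, 11.9% lower and 11.3% higher, and the median change was -0.27, against 0.03 over all probe sets. The 3559 higher and 3775 lower probe sets became 2607 and 5004 with that centring. With 1 probe set per named gene, 3095 of 11199 passed, 1421 higher and 1674 lower. All 14 enzymes of glycolysis and the pyruvate branch again had negative changes, and 8 of them fell. HK2 had 5.67 to 10.86 (median 7.01) at 1D4 and fell by 2.16 ± 0.61 (adjusted p = 0.0129, limma). ALDOC had 8.57 to 10.55 (median 8.99) and fell by 1.11 ± 0.27 (adjusted p = 0.00647, limma). Samples of BB770 and PPi2, the 2 animals at dose label 0.5 at this time, were the high ones. HK2 was above the animal's own baseline by 0.66 and 1.19 there. Its change was between -4.27 and -2.33 in the other 6 animals, with averages of -2.71 at 1.5 and -3.81 at 2.5. For PPi2 the baseline is the mean of a late luteal sample at 6.50 and an early follicular one at 10.85. Of the 10 genes that fell, only PDK1 had a negative average change at 0.5, of -0.09, while LDHA had 0.21 and ERO1A 1.38.

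SLC2A1 fell by 0.77 ± 0.19 at 1D4 (adjusted p = 0.00738, limma), with values from 9.95 to 11.27 (median 10.33). LDHA had 10.51 to 11.84 (median 11.18) and fell by 0.50 ± 0.14 (adjusted p = 0.0122, limma). SLC2A1 and LDHA stand at the entry of glucose and at the lactate step, and both were lower at this time. GAPDH fell by 0.52 ± 0.15, PDK1 by 0.52 ± 0.17, TPI1 by 0.44 ± 0.14, HK1 by 0.36 ± 0.13 and ENO1 by 0.25 ± 0.08. ERO1A had 8.62 to 12.68 (median 9.38) and fell by 1.30 ± 0.43 (adjusted p = 0.0273, limma), with 6 of 8 samples below and 1 above the whole baseline range. CA9 had a change of 0.20 ± 0.15 and did not pass. The number of genes past the threshold at 1D4 was 2 without PHQ1, 3 without BB0499, 5 without BB0540 and 5 without BB981, where 3091, 3093, 4164 and 3314 of all probe sets passed, against 7334. Between 2D2 and 1D4 none of the 25 genes passed, and 0% of all probe sets did. At an unadjusted p under 0.05 none of the 25 genes differed between these times either, against 1655 of 31624 probe sets. The 2 times share their baseline samples, and the difference itself was -0.51 ± 0.30 for ALDOC and -0.22 ± 0.68 for HK2.

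The animals at 2D2 differed among themselves by dose label. ALDOC changed by -0.97 to -0.24 in the 3 animals at 0.5, by -1.76 to -1.496 in the 3 at 1.5 and by -3.03 to -2.47 in the 3 at 2.5. These ranges did not overlap. HK2 changed on average by -0.80, -2.87 and -3.48 in the same order, GAPDH by -0.22, -0.63 and -1.06, and PDK1 by -0.22, -0.77 and -0.99. CA9 had average changes of 0.07, 0.44 and 0.74. SLC2A1 had no such order, with -0.10, -1.12 and -0.86, nor had PFKL, with -0.18, -0.52 and -0.46, or ENO2, with -0.12, -0.78 and -0.68. The ranges of GAPDH did not overlap either, but those of HK2 and PDK1 overlapped between 1.5 and 2.5. The ranges of CA9 overlapped too, with -0.46 to 0.39, 0.29 to 0.56 and 0.27 to 1.05. The baseline phases also differed between the labels. The 3 animals at 0.5 all had a late luteal baseline sample, while BB981 and BB405 at 1.5 had none. The relation to dose was not tested.

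Squamous markers fell at these times as well. At 2D2, 13 of 14 squamous markers fell and none rose, and their mean was 9.04 ± 1.64 (SD, n = 9, range 7.53 to 12.08), against 12.35 ± 0.94 over the 28 baseline samples. The mean lay below the animal's own baseline by 3.26 ± 1.84 on average (SD, 8 of 9 animals lower, adjusted p = 0.00244 over 16 tests, exact two-sided permutation within animals). At 1D4, 10 of 14 squamous markers fell and none rose, and their mean was 9.82 ± 1.82 (SD, n = 8), with an average change of -2.60 within animals (adjusted p = 0.00916, exact permutation). By dose label the changes of the mean at 2D2 were -3.26, -0.92 and 0.50 at 0.5, -3.99, -3.65 and -4.20 at 1.5, and -5.09, -4.61 and -4.16 at 2.5. Over the 9 animals the change followed that of the squamous mean in 7 of the 12 genes called at 2D2. The test was an exact two-sided permutation of Pearson's r, adjusted over the 12 genes. These genes were chosen by their call in the same samples, and no share over all probe sets stands beside this count. ALDOC had r = 0.90 (exact p = 1.1e-05, adjusted p = 0.000132) and Spearman's rho = 0.95 (exact p = 0.000353). The other genes that passed were ERO1A with r = 0.89 (adjusted p = 0.0113, exact), HK2 with 0.84 and SLC2A1 with 0.76 (adjusted p = 0.0197 for both, exact), GAPDH with 0.78 (adjusted p = 0.0237, exact), and LDHA with 0.79 and PDK1 with 0.76 (adjusted p = 0.0242 for both, exact). Their rho lay between 0.73 and 0.88. CA9 had r = -0.26 and did not pass, nor did HK1, PFKL, TPI1 and ENO2. The animals farthest from the median of the squamous change were BB770 and PPi2, both at 0.5. The changes of PPi2 rest on 2 baseline samples that lie far apart. Its HK2 was 6.50 in the late luteal one, the lowest of the DMPA baseline, and 10.85 in the early follicular one, with 7.65 at 2D2. Over the other 7 animals only ALDOC passed, with r = 0.94 (exact p = 0.00159, adjusted p = 0.0191 over 12 genes), while r was 0.88 for PDK1, 0.71 for HK2, 0.71 for GAPDH, 0.67 for ERO1A, 0.58 for LDHA and 0.54 for SLC2A1. With 3 animals at each dose label, the relation could not be tested within a dose. The permutation did not hold the dose label. The 3 animals at 0.5 lay highest in the change of the squamous mean and of ALDOC. The p values above therefore cannot separate the relation from a shared order by dose.

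**Figure D3:**
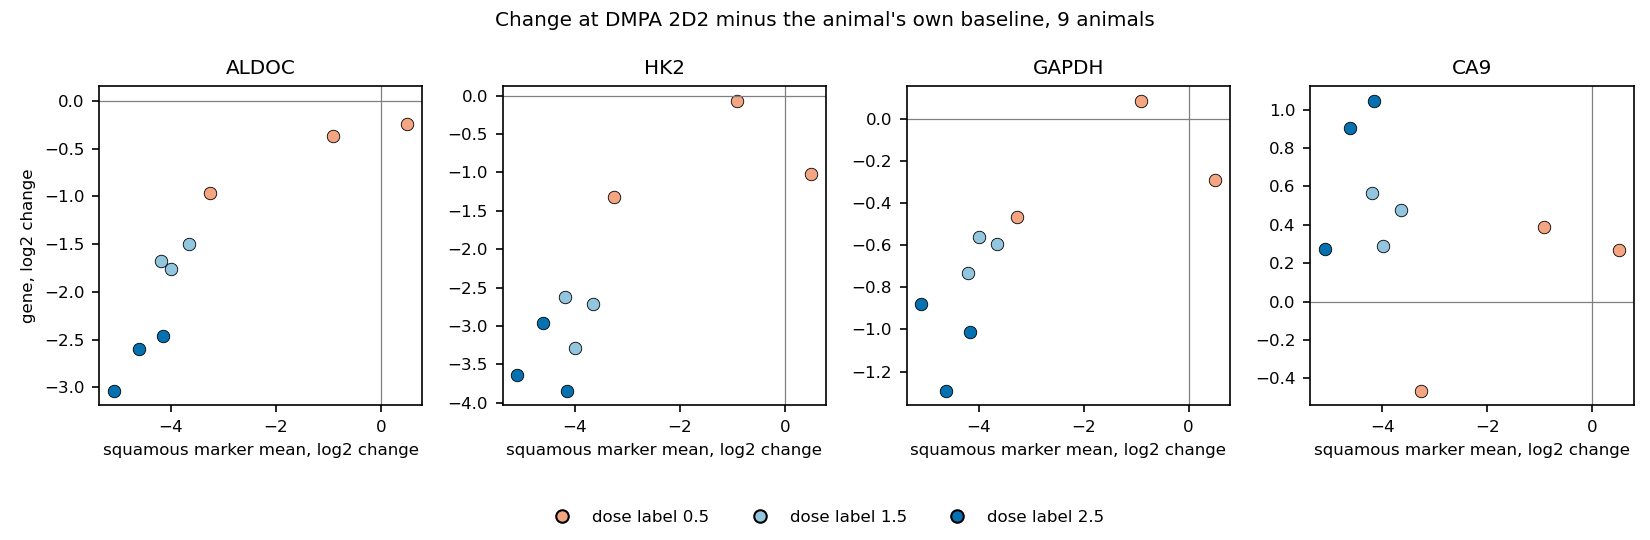
Change of ALDOC, HK2, GAPDH and CA9 at DMPA 2D2 minus the animal's own baseline (y axis, log2) against the change of the mean of 14 squamous marker genes (x axis, log2), 1 point per animal, coloured by dose label. The 3 animals at 2.5 have ALDOC changes of -3.03 to -2.47, below the 3 at 1.5, and the 3 animals at 0.5 lie highest.

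With the squamous mean as a covariate none of the 25 genes passed at 2D2 or 1D4, and none of the 31624 probe sets did. The HK2 change at 2D2 was then 0.23, that of ERO1A -0.06, that of ALDOC -0.31 and that of CA9 0.48. RNA quality moved too: at the GAPDH control probe sets, the signal at the 3' end exceeded that at the 5' end by 2.43 ± 0.70 (SD, n = 9) at 2D2, against 1.66 ± 0.31 at baseline (SD, n = 28), and this difference rose by 0.74 on average within animals (adjusted p = 0.00244, exact two-sided permutation). At the actin control probe sets the same difference rose by less, 0.23 on average (adjusted p = 0.0153, exact permutation). It was not used as a covariate, and GAPDH is itself 1 of the 25 genes. With the GAPDH difference as a covariate no gene passed at 2D2 and 3 passed at 1D4. The HK2 change at 2D2 was then -0.38 and that of CA9 0.43. The fibroblast and smooth muscle markers had a mean 0.06 ± 1.75 above the animal's own baseline at 2D2 (SD, adjusted p = 0.907, exact permutation). Animals ranged from -2.26 to 3.73. The change was negative in 7 of 8 fibroblast markers (median -0.19) and in 0 of 5 smooth muscle markers (median 0.50), and none passed. With this mean as a covariate 12 genes passed at 2D2. At 1D4 this mean rose by 1.28 (adjusted p = 0.0238, exact permutation), and with it as a covariate none passed. Of 8 columnar epithelium markers 6 rose at 2D2 and none fell, and their mean was 9.32 ± 0.45 there (SD, n = 9), against 8.41 ± 0.55 at baseline (SD, n = 28). Of 3 basal keratinocyte markers 2 rose and none fell at 2D2, and the same held at 1D4. The part of the columnar and basal markers in the results was not tested.

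In the LNG arm the question was the same, with 6 animals. Most of the changes were negative, but none of the 25 genes passed at 5th or 7th, where 0% and 0.00632% of all probe sets passed. At 5th, 16 of the 25 genes were at an unadjusted p under 0.05, against 6828 of 31624 probe sets, and at 7th 13 were, against 7487. All 14 enzymes of glycolysis and the pyruvate branch had negative changes at both times. The median change of the 25 genes was -0.27 at 5th and -0.35 at 7th, against -0.02 and -0.01 over all probe sets. Within animals, the average change at 5th was -0.04 ± 0.49 for CA9, -0.50 ± 0.64 for SLC2A1 and -0.37 ± 0.42 for LDHA (SD, n = 6). At 7th these were -0.19 ± 0.32, -0.50 ± 0.37 and -0.34 ± 0.31.

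ALDOC had 8.74 to 11.15 (median 9.15) at 5th and 8.24 to 10.40 (median 9.34) at 7th, against 9.86 to 11.47 (median 10.94) in the 11 baseline samples of the LNG animals. Its change was -1.28 ± 0.31 at 5th (adjusted p = 0.0544, limma) and -1.5003 ± 0.31 at 7th (adjusted p = 0.0591, limma), negative in 6 of 6 animals both times. ERO1A had 8.79 to 11.99 (median 9.15) at 5th, against 10.57 to 12.67 (median 11.92), a change of -1.85 ± 0.50 (adjusted p = 0.0554, limma). The samples of each split: BB4870 and BB269 were high at 5th, and for ERO1A 4 of 6 samples were below every baseline sample. ENO1 had 11.85 to 12.77 (median 12.49), against 12.46 to 12.90 (median 12.76), a change of -0.33 ± 0.09 in 6 of 6 animals (adjusted p = 0.0588, limma). HK2 had a change of -1.93 ± 0.71 and GAPDH of -0.53 ± 0.17. HK2 was at 0.55 and 0.52 in BB4870 and BB269, both labelled High. It was between -5.12 and -2.14 in the other 4 animals, which are BB967, also High, and those labelled Low. The relation to this label was not tested.

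P4HA1, which hydroxylates prolines of collagen, had a positive change at 5th. It had 7.67 to 11.84 (median 9.19) at 5th, against 7.23 to 8.83 (median 8.02) at baseline, with 5 of 6 samples above every baseline sample. Its change was 1.44 ± 0.39, positive in 6 of 6 animals (adjusted p = 0.0554, limma), while its other probe set had a change of 0.28. At 7th the change was 0.61 ± 0.39. Fibroblast and smooth muscle markers had a mean 1.97 above the animal's own baseline at 5th (adjusted p = 0.0256, exact permutation), and its part in this value was not tested. At 7th the smallest p of the set belonged to KDM3A, with 7.71 to 8.37 (median 7.90), against 7.86 to 9.05 (median 8.73), a change of -0.73 ± 0.15 in 6 of 6 animals (adjusted p = 0.0591, limma). Its other probe sets had changes of -0.56 and 0.22. The squamous mean lay below the animal's own baseline by 2.40 at 5th (adjusted p = 0.033, exact permutation) and by 2.18 at 7th (adjusted p = 0.0132, exact permutation). The GAPDH difference between the 3' and 5' ends rose by 0.47 at 7th (adjusted p = 0.00916, exact permutation), and at 5th its change of 0.40 did not pass. That of actin rose by 0.17 at 7th (adjusted p = 0.0188, exact permutation), and its change of 0.06 at 5th did not pass. Without BB4870, whose sample is the one marked (A-) at 5th, 10 genes passed at 5th, along with 3186 of 31624 probe sets. Without BB269, 3 genes and 920 probe sets passed at 5th, and 5 genes and 1094 probe sets at 7th.

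The arms were set against each other as the change at DMPA 2D2 minus the change at LNG 5th. None of the 25 genes passed and 0% of all probe sets did, and 1 of the 25 was at an unadjusted p under 0.05, against 2688 of 31624. That gene was P4HA1, with a difference of -1.49 ± 0.50 (unadjusted p = 0.00504, adjusted p = 0.51, limma). The difference was 0.45 ± 0.23 for CA9, -0.45 ± 0.91 for HK2, -0.34 ± 0.40 for ALDOC and -0.06 ± 0.64 for ERO1A. None of the 25 genes passed between 7th and 5th, where 0% of all probe sets passed, and none was at an unadjusted p under 0.05, against 946 of 31624.

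The cycle phases were compared in the untreated baseline. In the luteal phases, after ovulation, when progesterone is high, phosphofructokinase PFKP, PDK1, MXI1 and KDM3A were lower than in the follicular phases. These 4 of 25 genes fell and none rose, against 1.71% of all probe sets in either direction, 0.756% lower and 0.958% higher. The 303 higher and 239 lower probe sets became 323 and 500 with centring on the tested probe sets. Of 11199 named genes with 1 probe set each, 170 were higher and 133 lower. MXI1, which opposes MYC, fell by 0.58 ± 0.13 (adjusted p = 0.0301, limma), PFKP by 0.73 ± 0.17 (adjusted p = 0.0322, limma), PDK1 by 0.56 ± 0.14 (adjusted p = 0.0332, limma) and KDM3A by 0.39 ± 0.11 (adjusted p = 0.0483, limma). The other probe sets of KDM3A disagreed: one fell by 0.42 (adjusted p = 0.0373, limma) and the dimmest had a change of 0.28 and did not pass, and it was 0.22 in the late luteal comparison. PFKP had 9.27 to 10.32 (median 9.94) in the 10 early follicular samples, 9.49, 9.85, 9.86, 9.88 and 9.93 in the 5 late follicular ones, 8.48, 8.78, 9.63 and 9.78 in the 4 early luteal ones and 8.73 to 9.24 (median 9.02) in the 9 late luteal ones. The late luteal samples all lay below both follicular phases, while 2 of the 4 early luteal samples lay below all follicular samples and 2 among them.

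MXI1 had 8.75 to 10.24 (median 9.45) in the early follicular samples, 9.49, 9.93, 9.98, 9.994 and 9.996 in the late follicular, 8.78, 9.07, 9.24 and 9.38 in the early luteal and 8.76 to 9.55 (median 9.17) in the late luteal samples. PDK1 had 8.02 to 9.47 (median 8.95), 8.91, 9.01, 9.18, 9.36 and 9.36, 8.12, 8.62, 8.64 and 8.70 and 8.09 to 8.65 (median 8.37) in the same order. The late follicular samples of PDK1 all lay above every luteal sample, while the early follicular samples at 8.018 and 8.545 lay within or below the range of the luteal samples. KDM3A had 8.17 to 8.92 (median 8.60), 8.84, 8.86, 8.90, 8.98 and 9.05, 8.26, 8.38, 8.53 and 8.67 and 7.86 to 8.73 (median 8.17). None of these genes passed when BB173, BB269, BB4800, BB537, BB967, BB981 or PPi2 was left out, 1 passed without PHQ1, and none passed without the animal as a block. Over all probe sets 542 passed, against 2 to 49 without one of these 7 animals, 230 without PHQ1 and 13 without the block.

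**Figure D4:**
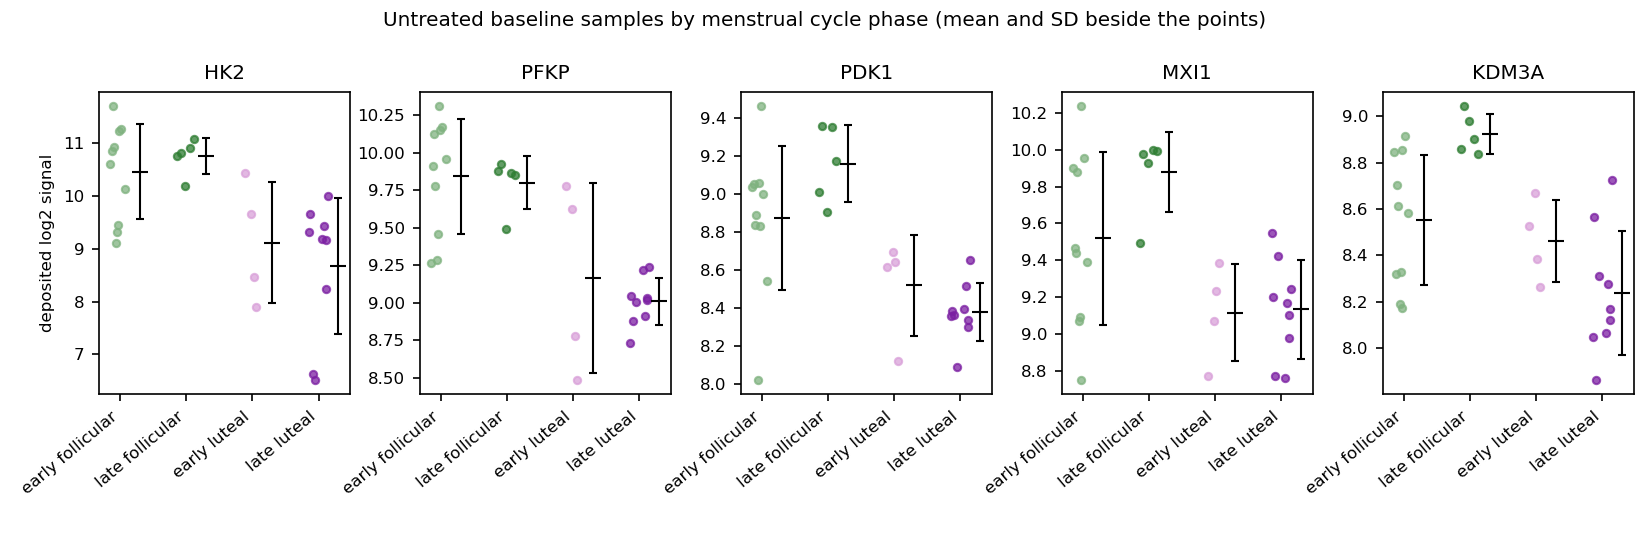
Deposited log2 signal (y axis) of HK2, PFKP, PDK1, MXI1 and KDM3A in the untreated baseline samples, as points by cycle phase (10, 5, 4 and 9 samples), with the mean and SD beside the points. Late luteal samples of PFKP lie between 8.73 and 9.24, under all early and late follicular samples, and the late luteal HK2 values reach down to 6.50.

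Late luteal against early follicular samples gave a wider fall. Of the 25 genes 10 fell and none rose, against 13% of all probe sets in either direction, 6.03% lower and 6.97% higher. The 2203 higher and 1907 lower probe sets became 1656 and 2476 with each array centred on its median, or 1705 and 3363 on that of the tested probe sets. Read with 1 probe set per named gene, 1908 of 11199 passed, 938 higher and 970 lower. HK2 had 6.50 to 10.003 (median 9.20) in late luteal samples, against 9.11 to 11.72 (median 10.73) in early follicular ones. It fell by 2.50 ± 0.55 (adjusted p = 0.00865, limma), and was lower in 6 of 6 animals sampled in both phases. PFKP fell by 1.00 ± 0.20 (adjusted p = 0.00671, limma), also in 6 of 6 animals. PDK1 fell by 0.64 ± 0.15, LDHA by 0.50 ± 0.14, SLC2A1 by 0.66 ± 0.18, ENO2 by 0.52 ± 0.18, GAPDH by 0.47 ± 0.15, MXI1 by 0.47 ± 0.15, PFKL by 0.39 ± 0.10 and KDM3A by 0.36 ± 0.12. The squamous mean was 11.97 ± 1.32 in late luteal samples (SD, n = 9), against 12.36 ± 0.83 in early follicular ones (SD, n = 10), and 1 of 14 squamous markers fell. In the fit with the animal as a block all 14 had negative changes, with a median of -1.08. With the squamous mean as a covariate 2 genes passed, along with 98 probe sets, and the HK2 change was -1.61. The fibroblast and smooth muscle mean was 10.02 ± 1.15 in late luteal samples, against 8.76 ± 1.10 in early follicular ones (SD, n = 9 and 10), and with it as a covariate 3 genes and 789 probe sets passed. The GAPDH difference between the 3' and 5' ends was 1.81 ± 0.44 in late luteal samples, against 1.57 ± 0.20 in early follicular ones (SD, n = 9 and 10), and with it as a covariate 1 gene and 67 probe sets passed. The count was 1 without BB967, 2 without PPi2, 6 without BB269 and 0 without the animal block, where 345, 561, 2012 and 0 of all probe sets passed, against 4110. Between late and early follicular samples none of the 25 genes and 0% of all probe sets passed, and none of the 25 was at an unadjusted p under 0.05, against 1315 of 31624 probe sets.

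The contraceptive and the cycle comparisons share baseline samples, so their values are set side by side only. HK2 had a change of -2.38 at 2D2 and of -2.5001 in the late luteal phase, and SLC2A1 of -0.70 and -0.66. PFKP had -0.34 at 2D2 and -0.995 in the late luteal phase, MXI1 -0.07 and -0.47, and KDM3A -0.05 and -0.36. ALDOC had -1.62 and -0.68, and ERO1A -1.91 and -1.09, with the late luteal values of both not passing.

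Other genes of the pathways were read from lists around the set. Over 71 tested genes of 9 such lists, 12 rose and 13 fell at 2D2, with a median of -0.07. The 16.9% that rose and the 18.3% that fell stood against 16% and 12.1% of all probe sets, so the share that rose was near that over all probe sets. The calls of single lists, which are small, are given as a description. Further glycolytic isoenzymes showed 1 rise and 3 falls in 7 genes. Pyruvate kinase PKLR of liver and red cells fell by 0.72 ± 0.13 (adjusted p = 0.000332, limma), the second phosphoglycerate kinase PGK2 by 0.25 ± 0.08, and the ADP-dependent glucokinase ADPGK rose by 0.29 ± 0.10. Both tested genes of fructose 2,6-bisphosphate control fell, TIGAR by 0.89 ± 0.28 and PFKFB1 by 0.55 ± 0.19. Of 8 genes around pyruvate dehydrogenase 1 fell and 1 rose: the kinase PDK3 fell by 0.79 ± 0.15 in 9 of 9 animals (adjusted p = 0.000449, limma) and the phosphatase PDP1 rose by 0.22 ± 0.08. Another kinase of the list, PDK2, had 0.26 ± 0.14 and did not pass.

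Transport and the paths that branch off glucose gave single calls. The monocarboxylate transporter SLC16A7 (MCT2) rose by 1.30 ± 0.32 in 9 of 9 animals (adjusted p = 0.00304, limma), as 1 of 6 genes of lactate and pyruvate transport, none of which fell. Of 3 other glucose transporters SLC2A10 rose by 0.91 ± 0.26 and SLC2A8 by 0.34 ± 0.13. In the pentose phosphate pathway 1 of 3 genes fell, TALDO1 by 0.30 ± 0.09, and in gluconeogenesis 1 of 4 rose, FBP1 by 0.50 ± 0.17.

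Of 12 genes of HIF subunits and their control 3 rose and none fell, where 16% of all probe sets rose. These were the HIF partner ARNT with 0.39 ± 0.13 and the coactivators CREBBP and EP300 with 0.38 ± 0.09 and 0.24 ± 0.07. Of 26 other hypoxia-induced genes 3 rose and 6 fell. BHLHE41, a transcriptional repressor of the clock, rose by 1.98 ± 0.48 in 9 of 9 animals (adjusted p = 0.00321, limma), and DDIT4, an inhibitor of mTOR signalling, by 0.62 ± 0.16. P4HB, the shared subunit of the collagen prolyl hydroxylases, fell by 0.49 ± 0.12. At LNG 5th and 7th none of the 71 genes passed, and in the late luteal phase 4 rose and 7 fell, or 15.5% against 13% of all probe sets, among them BHLHE41 with 1.90 ± 0.49 and SLC16A7 with 1.31 ± 0.31.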

How the data were processed

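The deposited values were log2 signals per probe set of Affymetrix-type arrays, made by the authors with affy and Partek, per the submitters' processing notes (versions, background correction and normalization are not given in the sources used here). No further scaling was applied. Among the 52865 probe sets, 158 controls stayed out of the choice of genes, and the 31624 probe sets with a mean at or above the 40th percentile were tested. The 58 arrays gave 57 samples, since a duplicate array of 1 late follicular sample was averaged with the other array of that sample. Replicates were paired by the animal identity in the labels.

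A linear model with the group and the animal as fixed terms was fitted to all samples with limma 3.58.1 (lmFit, eBayes) in R 4.3.3, with Benjamini-Hochberg adjustment over the 31624 probe sets. The random block used statmod 1.5.0. The code was tested on simulated data. Marker means were compared with exact permutation within animals. Gene names are those of the platform annotation. The probe sets of PFKL, ALDOA, TPI1, GAPDH, ENO1 and EGLN1 are of a type that can match near-identical copies, so their values are uncertain in that respect.

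The genes and lists were chosen with earlier results of these data known. Genes were chosen for fuller values by the smallest p, 12 at DMPA 2D2 or 1D4 and 4 each for LNG 5th and for the luteal comparison. GAPDH, LDHA, SLC2A1 and CA9 were added. Values were given mainly for the comparison in which a gene was chosen, so several of these genes have none for the others. From each list around the set, up to 3 genes with the smallest p at DMPA 2D2 were named. Alternatives, including centring on the tested probe sets, which was added after seeing the data, changed the scaling, filter, probe set per gene, animal term, weights, baseline and covariates, or left out 1 animal. A planned motif search in promoters was not run, and no sequences are shown.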

Additional observations from a re-analysis of the deposited data

Results flagged for a closer look

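Within groups of 4 to 10 samples, 1 sample stood far from the others in 16 of 208 combinations of gene and group, by the gap to its nearest neighbour over the range of the group. Chance gives about 1 in 20. Values are deposited log2 signals, with the nearest other sample after each.

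Of these, 4 were in DMPA samples. BB770 was highest for SLC2A1 at 1D4, with 11.3 against 10.5, and at 2D2 for HK2, with 10.1 against 7.65, and for LDHA, with 11.9 against 11.3. BB0499 was highest for P4HA1 at 2D2, with 9.99 against 8.44. At LNG 5th, BB4800 was lowest for ALDOA, with 12.4 against 12.9, and highest for ADM, with 8.29 against 7.83.

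In the late follicular samples, BB4800 was lowest for HK1, with 9.98 against 10.5, and highest for EGLN1, with 10.6 against 10.2. PHQ1 was lowest for PFKL, with 9.11 against 9.39, and for MXI1, with 9.49 against 9.93. BB537, whose value is the mean of a pair of arrays, was lowest for PFKP, with 9.49 against 9.85, and for TPI1, with 11.3 against 11.7. In the early luteal samples BB405 was highest for PKM, with 11.6 against 10.99, and BB173 was lowest for PDK1, with 8.12 against 8.62. INSIG2 was lowest in BB981 among the early follicular samples, with 8.44 against 8.90, and in BB967 among the late luteal ones, with 8.36 against 8.78.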

How the results depend on the processing

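Counts are of the 25 genes past the threshold. With the squamous mean as a covariate they were 0 at DMPA 2D2 (12 as reported) and 0 at 1D4 (10 as reported), 9 for luteal against follicular (4 as reported) and 2 for late luteal against early follicular (10 as reported). With the 3' minus 5' difference of GAPDH they were 0, 3, 0 and 1 in the same order, and with the fibroblast and smooth muscle mean 0 at 1D4, 1 for luteal against follicular and 3 for late luteal against early follicular. Without the animal as a replicate block the counts were 12 at 2D2, 11 at 1D4, 0 at LNG 5th and 7th, 0 for luteal against follicular and 0 for late luteal against early follicular. At LNG 5th (0 as reported) 4 genes passed with the 60th percentile as the filter, with 1 probe set per gene, with the mean of a gene's probe sets and with the animal as a random block, 7 with the phases of the baseline kept apart and 5 with array weights. At LNG 7th (0 as reported) 5 passed with the 60th percentile filter, 4 with the random block, 8 with array weights and 7 with the phases kept apart. Array weights gave 7 for luteal against follicular. Leaving out the late luteal sample of PPi2, chosen after seeing the data, gave 4 at LNG 5th, 6 at LNG 7th, 1 for luteal against follicular and 3 for late luteal against early follicular. Leaving out 1 animal at a time gave 9 to 13 at 2D2, 2 to 12 at 1D4, 0 to 10 at LNG 5th, 0 to 5 at LNG 7th, 0 to 6 for luteal against follicular and 1 to 15 for late luteal against early follicular. Other alternatives kept these counts within 1.5 times the reported one, and none of the 25 genes passed under any alternative between 2D2 and 1D4, 7th and 5th, the arms, or late and early follicular samples. The sign turned for 11 of the changes of single genes, none of which then passed. At 2D2 these were HK1 (0.12) and LDHA (0.0184) with the GAPDH difference, and SLC2A1 (0.0915), HK1 (0.0833), HK2 (0.23), GAPDH (0.023) and LDHA (0.16) with the squamous mean. At 1D4 they were TPI1 (0.022), GAPDH (0.0085), ENO1 (0.0014) and ERO1A (0.17) with the squamous mean. Over all probe sets the 8874 calls at 2D2 became 3721 with 1 probe set per gene, 3628 with gene means and 0 with either the squamous mean or the GAPDH difference. The 7334 at 1D4 became 3095, 3220, 0 and 1631 in the same order, 207 with the fibroblast and smooth muscle mean and 11812 with array weights. For luteal against follicular, the 542 calls over all probe sets became 2496 with the squamous mean, 7 with the GAPDH difference, 179 with the fibroblast and smooth muscle mean, 3321 with array weights and 122 without the sample of PPi2. For late luteal against early follicular, 598 of 4110 passed without that sample. At LNG 5th, where none passed as reported, 198 to 1808 passed under the alternatives that let some of the 25 genes pass, leaving out animals aside, and at LNG 7th 532 to 3572. Fewer probe sets were tested with 1 probe set per gene (11199 against 31624) and with gene means, so those lower counts are not lower shares as such. The causes of these differences were not tested.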

Other observations

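PFKFB3, which makes the activator of phosphofructokinase, lay under the brightness minimum and was not tested. Its deposited log2 signal averaged 5.67 ± 1.17 at DMPA 1D4 (SD, n = 8), 5.12 ± 1.09 at DMPA 2D2 (SD, n = 9), 6.0995 ± 1.56 at LNG 5th (SD, n = 6) and 5.75 ± 0.76 at LNG 7th (SD, n = 6), against 4.82 ± 0.70 in the baseline (SD, n = 28).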
